A study of Homo sapiens with 4 samples.

Results

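The genes described here encode the protein machinery of pre-mRNA splicing. They were chosen by name, as the protein-coding RefSeq symbols on chromosomes 1 to 22 and X that begin with SNRP, SF3A or SF3B, PRPF, U2AF, SRSF or LSM followed, for PRPF, SRSF and LSM, by a number. The rule found 61 genes of 19970 protein-coding genes, in 6 families with 12 SNRP, 9 SF3, 12 PRPF, 3 U2AF, 12 SRSF and 13 LSM members. The rule uses no binding value. The measurement was chromatin immunoprecipitation sequencing (ChIP-seq) of BRD8, which reports where a protein sits on DNA. BRD8 carries a bromodomain, a fold that reads acetylated lysine, and belongs to TIP60/NuA4, the chromatin complex whose acetyltransferase is KAT5. The cells were HCT116 and SW480, both long-established lines from human colorectal cancers, with no treatment or engineered allele named in the labels. Each line gave 1 BRD8 ChIP library and 1 input library, so 4 libraries in all. HCT116 was grown in McCoy's medium and SW480 in Leibovitz's medium, so line and medium cannot be told apart. Chromatin in both lines was fixed for 10 minutes in 1% formaldehyde and cut with micrococcal nuclease, and the same polyclonal antibody was used.

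Splicing removes introns through 5 small nuclear ribonucleoproteins (snRNPs), each an RNA dressed with proteins. A ring of Sm proteins closes around the U1, U2, U4 and U5 RNAs, and a ring of LSM proteins closes around U6. U2AF reads the end of the intron, SF3A and SF3B seat the U2 snRNP on the branch site, and the PRPF proteins assemble and drive the U4/U6.U5 tri-snRNP and the catalytic steps. SR proteins, the SRSF family, bind exons through RNA recognition motifs and recruit the core machinery through arginine- and serine-rich tails.

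The HCT116 list held 22303 peaks on the chromosomes used and the SW480 list 12874. With 1 library per line there is no replicate error, so the values below describe these libraries and no test was made. Intervals are 95% Wilson intervals, which cover counting over genes only. Of 7 genes of colorectal epithelium checked, EPCAM, KRT8 and CDX2 had a HCT116 peak at a gene end and none had a SW480 peak. None of 6 genes of blood, connective tissue, vessel or liver cells had a peak in either line. Peaks show binding and not RNA, so this is no measure of cell identity.

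BRD8 sat at the ends of nearly all of these genes in HCT116 and of most of them in SW480. A gene was counted as bound when the summit of a deposited peak lay within 1 kb of either of its ends. In HCT116, 57 of the 61 genes were bound (93.4%, interval 84.3 to 97.4), beside 44.0% of all protein-coding genes. In SW480, 44 were bound (72.1%, interval 59.8 to 81.8), beside 22.1% of all protein-coding genes. All 44 SW480 genes were also bound in HCT116, so 72.1% were bound in both lines, beside 20.3% of all protein-coding genes. HCT116 alone bound 13 (21.3%), beside 23.7%, and SW480 alone bound 0 of 61, beside 1.81%. PRPF18, SNRPN, SRSF12 and U2AF1 were bound in neither line.

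Most members of each family were bound in HCT116, and the families ranged more widely in SW480. In HCT116 every SF3 gene (9 of 9) and every LSM gene (13 of 13) was bound, as were 11 of 12 SNRP, 11 of 12 PRPF and 11 of 12 SRSF genes. U2AF had 2 of 3. In SW480 the SNRP family kept the count it had in HCT116, with 11 of 12 genes (91.7%, interval 64.6 to 98.5), though at a −log10 q of at least 5 it had 7 in SW480 and 11 in HCT116. SRSF followed with 9 of 12 (75%, interval 46.8 to 91.1), LSM with 9 of 13 (69.2%, interval 42.4 to 87.3), PRPF with 8 of 12 (66.7%, interval 39.1 to 86.2) and SF3 with 6 of 9 (66.7%, interval 35.4 to 87.9). U2AF had 1 of 3 (33.3%, interval 6.15 to 79.2). The intervals of the 6 families overlapped in each line, so their order is not resolved by these counts.

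**Figure D1:**
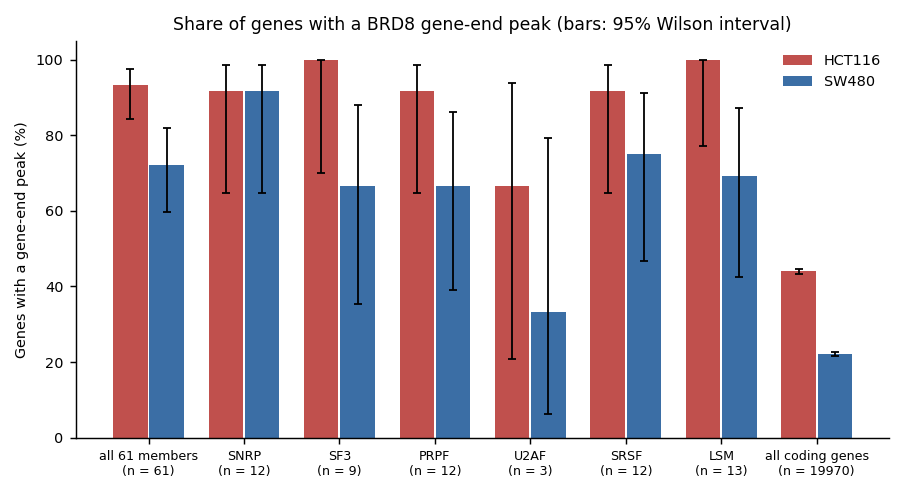
Share of genes with a BRD8 gene-end peak (%, linear axis from 0) for the 61 genes, each family and all protein-coding genes, HCT116 in red and SW480 in blue, with 95% Wilson intervals as error bars. The share of all 61 genes is 93.4% in HCT116 and 72.1% in SW480, above 44.0% and 22.1% of all coding genes, and the intervals of the families overlap.

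The strength of binding was read from the deposited fold enrichment, the summit signal over the local background with 1 added to each. Where a gene had several end peaks, the one of highest fold stood for it. The median fold over bound genes was 6.51 in HCT116 and 3.50 in SW480, beside 4.87 in HCT116 and 3.40 in SW480 for all bound protein-coding genes. A fold also carries the sequencing depth of its own library, so ranks within a line are the safer measure. The median summit pileup of bound genes was 47 fragments in HCT116 and 46 in SW480, beside 34 and 39 for all bound protein-coding genes, and the median background was 6.31 and 13.0, beside 5.93 and 10.5. Over all 61 genes, with unbound genes ranked lowest, the median percentile among protein-coding genes was 86.7 in HCT116 and 84.9 in SW480. The SNRP family had the highest family median in HCT116, 9.25, followed by U2AF with 7.32 over 2 genes, SRSF with 6.25, PRPF with 6.04, SF3 with 5.31 and LSM with 5.20. In HCT116, 10 of 11 bound SNRP genes lay above LSM7, the highest LSM gene at 7.80. In SW480 the medians ran from 2.81 for SRSF to 3.68 for SNRP, and 4 of 11 SNRP genes lay above LSM14A, the highest LSM gene there at 4.17.

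**Figure D2:**
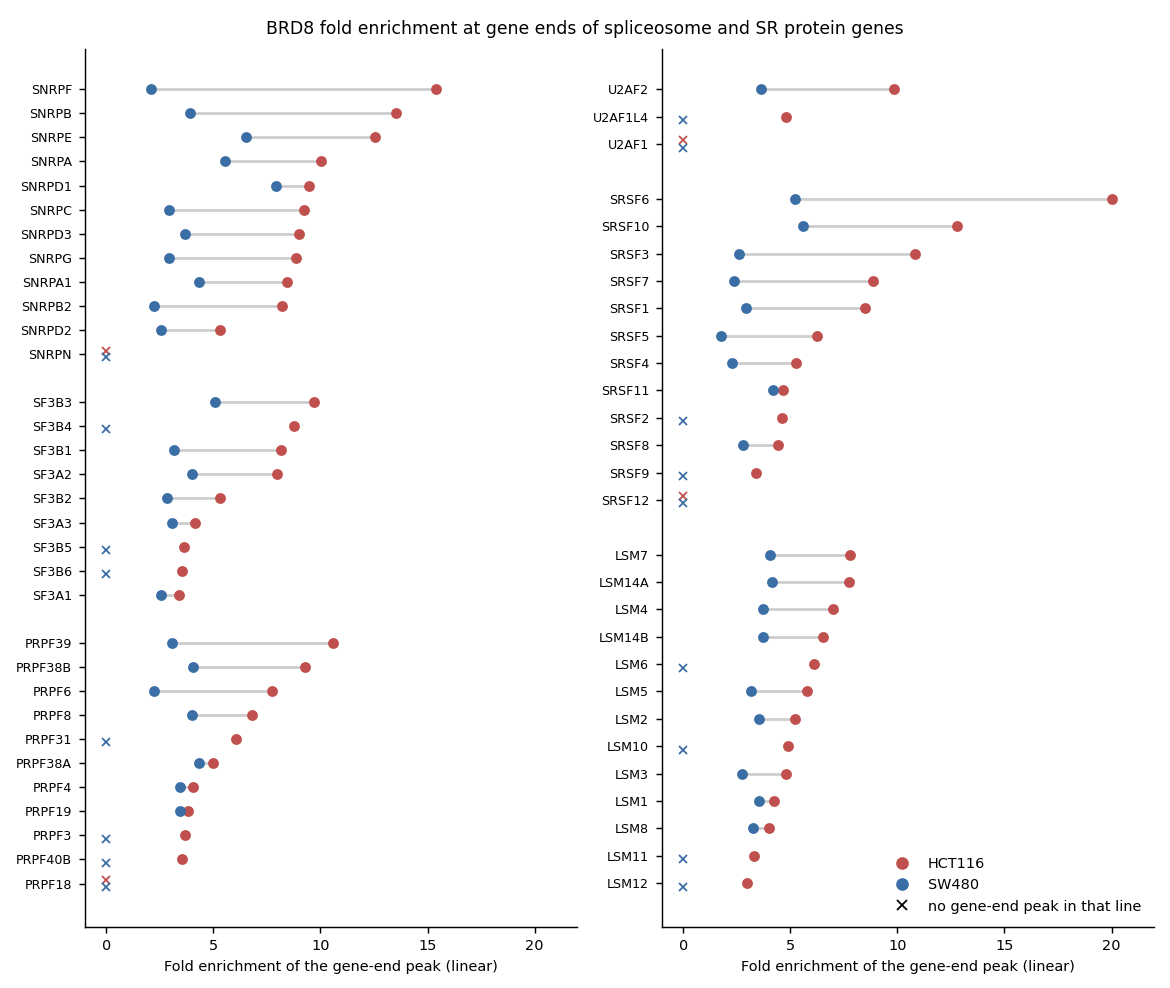
Fold enrichment of the gene-end peak of highest fold (linear axis) for the genes reported here, grouped by family and ordered by HCT116 fold, with HCT116 in red, SW480 in blue and crosses at 0 for genes without a gene-end peak in that line. Every gene bound in both lines has the higher fold in HCT116, for example SRSF6 at 20.03 and 5.24 and PRPF19 at 3.81 and 3.46. So do 3744 of all 4051 coding genes bound in both lines.

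Promoter sequence is shown for genes at both extremes of HCT116 binding. The RefSeq promoter table of GRCh38.p14 held 52 of the 61 genes, as 250 bases before and 50 bases after each annotated start. Of its genes, 15812 were protein-coding genes counted here. The stretches below are the 150 bases before the start, written 5′ to 3′ on the gene's strand, for SRSF6, SNRPF and SRSF3, 3 genes of high HCT116 fold, and for the unbound SRSF12 and PRPF18. Capitals mark a match to any motif searched on either strand.
SRSF6 (chr20:43457746-43457895, plus strand): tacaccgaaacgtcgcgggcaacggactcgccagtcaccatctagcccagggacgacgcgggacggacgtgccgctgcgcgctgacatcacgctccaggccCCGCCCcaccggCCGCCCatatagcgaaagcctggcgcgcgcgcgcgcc
SNRPF (chr12:95858802-95858951, plus strand): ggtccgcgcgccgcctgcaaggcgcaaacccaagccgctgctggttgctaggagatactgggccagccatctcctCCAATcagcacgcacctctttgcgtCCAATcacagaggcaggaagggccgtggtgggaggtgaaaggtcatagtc
SRSF3 (chr6:36594212-36594361, plus strand): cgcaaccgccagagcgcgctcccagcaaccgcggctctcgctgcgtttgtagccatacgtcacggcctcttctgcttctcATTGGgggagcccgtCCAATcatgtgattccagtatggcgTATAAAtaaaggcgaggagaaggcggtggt
SRSF12 (chr6:89118072-89118221, minus strand): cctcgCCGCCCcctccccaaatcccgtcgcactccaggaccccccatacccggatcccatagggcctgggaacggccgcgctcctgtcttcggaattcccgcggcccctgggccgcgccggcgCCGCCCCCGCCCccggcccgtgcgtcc
PRPF18 (chr10:13586815-13586964, plus strand): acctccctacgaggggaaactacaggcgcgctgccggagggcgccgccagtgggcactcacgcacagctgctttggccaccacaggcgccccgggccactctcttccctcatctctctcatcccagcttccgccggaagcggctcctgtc
The SRSF6 stretch lay inside its peak region in both lines, and those of SNRPF and SRSF3 lay inside the HCT116 region. The SW480 region held most of the SNRPF stretch, both CCAAT boxes included, and none of the SRSF3 stretch. The capitals in SRSF6 and SRSF12 are GC boxes, those in SNRPF are CCAAT boxes, and those in SRSF3 are CCAAT boxes and a TATA box. The PRPF18 stretch held none of the searched motifs. The bound SRSF6 and the unbound SRSF12 thus both carried GC boxes before the start.

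The ETS motif, the site read by ETS factors such as GABPA, was shared most among the SF3 genes. Its letters CCGGAAGT, searched on both strands of the 300 bases, occurred in 13 of 52 promoters (25.0%, interval 15.2 to 38.2), beside 6.17% of all 15812 promoters and 11.0% of those of coding genes bound in HCT116. Promoters of coding genes not bound in HCT116 held it in 1.98%. These shares are a description of sequence and were not tested. All 13 genes were bound in HCT116 and 11 of them in SW480, beside 48 and 38 of all 52 genes in the promoter table. Of all 975 coding genes whose promoter held these letters, 807 were bound in HCT116. The SF3 family held 6 of the 13, out of 8 SF3 promoters in the table, and SNRP held 3 of 11. SRSF had 2 of 11, PRPF 1 of 9, U2AF 1 of 3 and LSM 0 of 10. The match lay inside the peak region of 12 of 13 genes in HCT116 and of 4 of 11 in SW480, at a median of 279 bp and 245 bp from the summit.

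The matches of 10 of these promoters are shown, so that the bases around the shared letters can be compared, with 10 bases on each side, in the gene's direction, with the motif in capitals.
SF3A1 (chr22:30356926-30356953, minus strand): ggggacggtcCCGGAAGTgcgccagtcg
SF3A3 (chr1:37990074-37990101, minus strand): gtcccggggcACTTCCGGcactcgcgga
SF3B2 (chr11:66052301-66052328, plus strand): tacggcgccaCCGGAAGTtccggcaagt
SF3B4 (chr1:149927812-149927839, minus strand): cgtcttcgccCCGGAAGTggaagtcgtg
SF3B6 (chr2:24076468-24076495, minus strand): ggtacagagcCCGGAAGTgtcttggact
SNRPA1 (chr15:101295345-101295372, minus strand): gcgcgccacgACTTCCGGcaagaacgcc
SNRPB (chr20:2470813-2470840, minus strand): gtgagctggaCCGGAAGTaggtttctac
SRSF5 (chr14:69767075-69767102, plus strand): aggggcgtccCCGGAAGTgacgtaggac
PRPF6 (chr20:63981016-63981043, plus strand): ctagccgcggCCGGAAGTcgtcgaacca
U2AF2 (chr19:55654995-55655022, plus strand): ccggcggcggCCGGAAGTagccgaagcc
SF3A3 and SNRPA1 carry the motif on the opposite strand, so it reads there as ACTTCCGG. The match began 26 bases before the start in SF3B4, 30 in U2AF2, 41 in SNRPB, 49 in SF3A1, 53 in SF3B2, 57 in SRSF5, 69 in SF3A3, 106 in PRPF6, 114 in SNRPA1 and 159 in SF3B6. In SF3A2 it began 9 bases before the start and in SRSF4 242. In SNRPE it began 241 bases before the start in the promoter table, which lies 248 bases downstream of the gene start used for its summits.

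The other motifs stood in from 0 to 29 of the 52 promoters. The E-box CACGTG, which MYC and related factors read, stood in 1 promoter, SF3B1 (1.92%, interval 0.340 to 10.1), beside 8.82% of all promoters and 11.6% of those bound in HCT116. No promoter held the cAMP response element TGACGTCA, beside 2.56% of all promoters and 3.54% of those bound in HCT116. The NRF1 core GCGCATGC stood in 5 (9.62%, interval 4.18 to 20.6), beside 4.28% of all promoters and 6.38% of those bound in HCT116. The YY1 core AAGATGGCG stood in 4 (7.69%, interval 3.03 to 18.2), beside 2.69% and 4.80%. The TATA box TATAAA stood in 2, SNRPC and SRSF3 (3.85%), beside 9.75% and 5.13%. The ZBTB33 core TCTCGCGA also stood in 2 (3.85%), beside 1.74% and 2.96%, and the AP-1 motif TGAGTCA in 1 (1.92%), beside 3.62% and 2.81%. The CCAAT box CCAAT stood in 17 (32.7%), beside 36.4% and 37.7%, and the GC box GGGCGG in 29 (55.8%), beside 58.3% of all promoters and 72.2% of those bound in HCT116. Base composition was ordinary, with a median GC content of 61.3% and 27 CpG sites per 300 bases, beside 62.7% and 22 in all promoters, and 65.3% and 27 in promoters bound in HCT116.

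Among the snRNP proteins, the 7 subunits of the Sm ring were bound in both lines without exception. SNRPF (chr12:95858952-95866140, plus strand) had the highest fold of the family in HCT116, 15.4, from a pileup of 85 fragments over a background of 4.59, with a −log10 q of 70.5. In SW480 the same gene had the lowest fold of the family, 2.08, from a pileup of 37 over a background of 17.3, with a −log10 q of 2.12. The summits lay 143 bp (chr12:95858629-95860393) and 87 bp (chr12:95858821-95859604) downstream of the start. SNRPF also had the largest ratio of HCT116 over SW480 fold of all 44 genes bound in both lines, 7.41, made of a 2.30-fold higher pileup and a background 0.265 times that of SW480.

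SNRPB, which encodes the paired isoforms SmB and SmB′, had a HCT116 pileup of 90 over a background of 5.74, which gave fold 13.5 (−log10 q 68.6). Its SW480 pileup was 94 over 23.4, which gave fold 3.90 (−log10 q 23.5). The pileups were close, and the fold differed with the background. SNRPE had 134 over 9.75 in HCT116 (fold 12.6, −log10 q 95.7) and 62 over 8.65 in SW480 (fold 6.53, −log10 q 27.3). Its summits lay 82 bp and 112 bp downstream of the start. SNRPD1 had the highest SW480 fold of all the splicing genes chosen, 7.94, from 103 fragments over 12.1 (−log10 q 53.3). This placed it at rank 65 among SW480 genes. In HCT116 it had 106 over 10.3, for a fold of 9.45 (−log10 q 63.2), at rank 707 among HCT116 genes. SNRPD3 had folds of 8.995 and 3.68, SNRPG 8.86 and 2.92, and SNRPD2 5.34 and 2.55, in HCT116 and SW480.

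The snRNP-specific proteins were bound alike. SNRPA, which binds a stem-loop of the U1 RNA, had a HCT116 fold of 10.0 (86 fragments over 7.67, −log10 q 54.0) with its summit 161 bp downstream of the start. In SW480 its strongest peak by fold lay 853 bp upstream, at 5.54 (79 over 13.4, −log10 q 29.6). A second SW480 peak 164 bp downstream had a fold of 3.55. SNRPB2, a U2 snRNP protein and paralog of SNRPA, had 8.22 in HCT116 (38 over 3.75, −log10 q 21.8) and 2.22 in SW480 (32 over 13.9, −log10 q 2.21). SNRPC, a U1 protein that touches the 5′ splice site, had 9.25 and 2.93. SNRPA1, a U2 snRNP protein and partner of SNRPB2, had 8.43 and 4.34, with summits 262 bp and 264 bp downstream of the start.

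SNRPN was the exception among the snRNP genes. It is the imprinted paralog of SNRPB, read mainly in brain, and neither line had a peak at its ends. The nearest summit to either of its ends lay 460757 bp away in HCT116 and 1784253 bp away in SW480. SNRPB itself had fold 13.5 in HCT116 and 3.90 in SW480. The table places SNRPN at chr15:24823637-24978723, a long span with several known starts, and only its 2 annotated ends were searched, while no peak inside it was found either.

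SF3 genes encode the U2 snRNP parts that grip the branch site. All 3 SF3A genes were bound in both lines, whereas SF3B had 6 of 6 in HCT116 and 3 of 6 in SW480 (50%, interval 18.8 to 81.2). SF3B3, a large scaffold of SF3B, led the family in both lines with 9.70 in HCT116 (120 fragments over 11.5, −log10 q 72.6) and 5.10 in SW480 (57 over 10.4, −log10 q 19.4). Its regions were chr16:70522257-70526132 and chr16:70522906-70524640. SF3B1, the HEAT-repeat subunit that holds the branch-site helix, had 8.16 (68 over 7.46, −log10 q 37.0) and 3.19 (38 over 11.2, −log10 q 6.53). Its HCT116 summit lay 273 bp downstream and its SW480 summit 424 bp upstream of the start, with a further SW480 peak 354 bp downstream at fold 2.82. SF3A2 had 7.99 (52 over 5.63, −log10 q 28.3) and 3.99 (56 over 13.3, −log10 q 14.1). SF3B2 had 5.32 and 2.85, SF3A3 4.15 and 3.05, and SF3A1 3.40 and 2.55.

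The SF3B genes without a SW480 peak encode the smaller subunits. SF3B4, which binds the pre-mRNA upstream of the branch site, had a HCT116 fold of 8.75 from 48 fragments over 4.60 (−log10 q 28.3), with the summit 126 bp downstream of the start. That is the highest HCT116 fold of the 13 genes bound in HCT116 alone. SF3B6, which lies at the branch adenosine, had 3.54 (31 over 8.03, −log10 q 6.93) at 163 bp downstream. SF3B5 had 3.62 (22 over 5.36, −log10 q 5.11) at 388 bp upstream. A second HCT116 peak of SF3B5, 182 bp downstream, held more fragments, 42, at a fold of 3.30 (−log10 q 8.38). SF3B6 and SF3B5 lay under the HCT116 median of 6.51 and SF3B4 above it.

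The PRPF genes act from the first contact of U1 with the intron to the catalytic steps. PRPF39, a U1-associated protein, had 10.6 in HCT116 (54 fragments over 4.20, −log10 q 36.5) and 3.08 in SW480 (42 over 13.0, −log10 q 6.84). PRPF40B, a WW-domain protein linked to U1, had 3.56 in HCT116 (25 over 6.31, −log10 q 5.63), 682 bp downstream of the start, and no SW480 peak. PRPF38B had 9.30 (50 over 4.49, −log10 q 30.8) and 4.04 (33 over 7.42, −log10 q 8.28). PRPF38A, its paralog and a factor of spliceosome activation, had 5.00 (47 over 8.61, −log10 q 16.4) and 4.32 (22 over 4.32, −log10 q 6.09), the highest SW480 fold of the family from its smallest SW480 pileup.

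The genes of tri-snRNP proteins had HCT116 folds from 3.69 for PRPF3 to 7.73 for PRPF6. PRPF8, the U5 protein at the heart of the catalytic core, had 6.82 in HCT116 (41 fragments over 5.16, −log10 q 19.8) and 4.01 in SW480 (55 over 13.0, −log10 q 13.9). Its summits lay 192 bp and 186 bp downstream of the start. PRPF6, which bridges U5 to U4/U6, had 7.73 and 2.21, with summits 292 bp and 926 bp upstream of the start. PRPF4 had 4.03 and 3.44. PRPF31, which binds the U4 RNA, had 6.04 in HCT116 (57 over 8.61, −log10 q 24.0), 172 bp upstream of the start, and no SW480 peak. PRPF3 likewise had a HCT116 peak alone, at 3.69 (20 over 4.69, −log10 q 4.82) and 949 bp from the end, with a second HCT116 peak of fold 3.12 that lay 336 bp from the end. PRPF19, the ubiquitin ligase of the complex that activates the spliceosome, had 3.81 and 3.46. PRPF18, a factor of the second catalytic step, had no gene-end peak, and the nearest summit lay 236897 bp away in HCT116 and 238418 bp away in SW480.

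The U2AF genes read the 3′ end of the intron. U2AF2, the large subunit that binds the polypyrimidine tract, had 9.85 in HCT116 (88 fragments over 8.03, −log10 q 54.5) and 3.65 in SW480 (72 over 19.0, −log10 q 16.1), with summits 453 bp (chr19:55653557-55657523) and 392 bp (chr19:55655090-55656816) downstream of the start. U2AF1L4, a paralog of the small subunit, had 4.78 in HCT116 (28 over 5.07, −log10 q 9.53) at 617 bp downstream and no SW480 peak. U2AF1, the small subunit that reads the AG dinucleotide, was bound in neither line, the nearest summits being 117335 bp and 117128 bp away. The assembly holds a near-identical copy of U2AF1 elsewhere on chromosome 21 (chr21:6484623-6499248), which had no gene-end peak either. How reads that fit both copies were placed is not stated, so the missing peak of U2AF1 is uncertain.

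SR protein genes included the strongest peak of all the genes chosen. SRSF6 (chr20:43457896-43464243, plus strand) had a HCT116 fold of 20.03 from 117 fragments over a background of 4.89, with a −log10 q of 109.8, rank 25 among protein-coding genes. In SW480 it had 5.24 from 104 over 19.0, with a −log10 q of 36.9. The summits lay 252 bp (chr20:43456904-43458698) and 253 bp (chr20:43457261-43458410) downstream of the start, 1 bp apart. The pileups differed by a factor of 1.12 and the backgrounds by more. SRSF10, an SR protein that represses splicing when dephosphorylated, had 12.8 (72 over 4.70, −log10 q 54.0) and 5.62 (54 over 8.79, −log10 q 20.45). Its HCT116 region, chr1:23978612-23982016, covered 2 separate SW480 end peaks, 401 bp upstream and 159 bp downstream of the start. SRSF3, the smallest SR protein, had 10.8 (109 over 9.18, −log10 q 71.3) and 2.59 (36 over 13.3, −log10 q 3.95).

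SRSF1, the founding SR protein, had the largest pileup of all the genes chosen, 173 fragments in HCT116 over a background of 19.5, with a fold of 8.49 (−log10 q 94.4). By fold it ranked 1038 among protein-coding genes. In SW480 a start peak held 82 fragments over a background of 37.2, for a fold of 2.17 (−log10 q 6.61), and a small peak near the other end had 14 fragments over 4.09, for a fold of 2.95 (−log10 q 1.82). The small one stood for the gene under the highest-fold rule, so the ratios of SRSF1 between the lines do not compare like with like. SRSF7 had 74 fragments in HCT116 and 69 in SW480, over 7.46 and 28.5, so its fold was 8.87 and 2.37. SRSF5 had 6.25 and 1.79, and SRSF4 5.25 and 2.29.

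SRSF11 had 4.65 in HCT116 (40 fragments over 7.82, −log10 q 12.9) and 4.18 in SW480 (21 over 4.26, −log10 q 5.55). SRSF2, whose product activates exons and which carries recurrent mutations in blood cancers, had a HCT116 fold of 4.59 from 80 fragments over 16.6 (−log10 q 25.2) and no SW480 peak, the nearest SW480 summit being 6432 bp away. SRSF8, a gene copied from SRSF2, had 4.43 in HCT116 (20 over 3.75, −log10 q 6.34), 462 bp upstream, and 2.81 in SW480 (48 over 16.4, −log10 q 6.63), 830 bp downstream. A larger HCT116 peak of 36 fragments and fold 3.85 overlapped the SW480 one with its summit 1064 bp downstream, just past the limit. SRSF9 had 3.40 in HCT116 (20 over 5.18, −log10 q 4.18), 758 bp downstream, and no SW480 peak. A second HCT116 peak of SRSF9, 275 bp upstream, held 30 fragments at a fold of 3.3 (−log10 q 5.95). SRSF12, a close relative of SRSF10, had no gene-end peak, and the nearest summit lay 13967 bp away in HCT116 and 28244 bp away in SW480.

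Of the LSM genes, the 7 that build the U6 ring were all bound in HCT116, and 6 of them in SW480. LSM7 led with 7.80 in HCT116 (56 fragments over 6.31, −log10 q 29.7) and 4.06 in SW480 (48 over 11.1, −log10 q 12.3), with summits 214 bp (chr19:2327517-2328591) and 189 bp (chr19:2328106-2328557) downstream of the start. LSM4 had 6.98 (66 over 8.61, −log10 q 31.6) and 3.74 (48 over 12.1, −log10 q 10.9), its summits being 1 bp apart. LSM5 had 5.78 and 3.16, LSM2 5.20 and 3.53, and LSM3 4.81 and 2.75. The 2 LSM3 peaks did not overlap, with summits 486 bp upstream in HCT116 and 225 bp downstream in SW480. A second HCT116 peak of LSM3, 140 bp downstream, had a fold of 3.665 (30 fragments, −log10 q 7.06). LSM6 had 6.11 in HCT116 (28 over 3.75, −log10 q 12.6), 106 bp from the end, and no SW480 peak. The ring's median fold was 5.78 in HCT116 and 3.38 in SW480, beside 9.45 and 3.68 for the Sm ring.

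LSM8 and LSM1 are the members that tell the nuclear U6 ring from the cytoplasmic ring of mRNA decay. LSM8 had 4.02 in HCT116 (33 fragments over 7.46, −log10 q 8.88) and 3.24 in SW480 (25 over 7.03, −log10 q 4.26). LSM1 had 4.22 (42 over 9.18, −log10 q 12.0) and 3.53 (26 over 6.64, −log10 q 5.22). These stood close to each other in both lines.

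The other LSM genes have roles outside U6. LSM14A and LSM14B, paralogs found in cytoplasmic mRNA granules, had 7.72 and 6.51 in HCT116 (51 and 42 fragments, −log10 q 27.0 and 19.4) and 4.17 and 3.75 in SW480 (68 and 81 fragments, −log10 q 18.3 and 19.0). Their backgrounds were 5.74 and 5.60 in HCT116, and 15.6 and 20.9 in SW480. LSM10 and LSM11 replace D1 and D2 in the U7 snRNP, which trims histone mRNA. Both were bound in HCT116 alone, LSM10 at 4.91 (38 over 6.95, −log10 q 13.1) and LSM11 at 3.32 (19 over 5.02, −log10 q 3.81), whereas SNRPD1 and SNRPD2 were bound in both lines. LSM12, an Sm-like protein outside the rings, had the lowest HCT116 fold, 2.97 (18 over 5.40, −log10 q 2.89), 430 bp downstream of the start. A stronger HCT116 peak of fold 4.95 and a SW480 peak of fold 3.09 sat 1051 bp and 1083 bp downstream, so its call in HCT116 alone rests on the distance limit.

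The 13 genes bound in HCT116 alone were mostly weak there, as read from the peak of highest fold. Their median HCT116 fold was 3.69 and their median pileup 28, beside 7.90 and 53 for the 44 genes bound in both lines. A SW480 summit lay within 20 kb of an end of 6 of the 13. The matching share of all protein-coding genes was not counted, so nothing is read from this. At equal list length, with the HCT116 list reduced to its 12874 peaks of highest −log10 q, 55 of the 61 genes were bound in HCT116, beside 37.4% of all protein-coding genes, and 44 in SW480, beside 22.1%.

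Across the 44 genes bound in both lines the higher fold in HCT116 went with a lower local background more than with a larger pileup. The fold ratio, HCT116 over SW480, had a median of 1.93 (range 1.10 to 7.41) and was above 1 in 44 of 44 genes. The pileup ratio had a median of 1.20 (range 0.417 to 12.4) and was above 1 in 33. The background ratio had a median of 0.547 (range 0.228 to 4.77) and was above 1 in 7. All 4051 protein-coding genes bound in both lines gave medians of 1.79 for fold, 1.12 for pileup and 0.585 for background. Among those 4051 genes the fold ratio was above 1 in 3744, the pileup ratio in 2423 and the background ratio in 584. The higher HCT116 fold was thus common to most genes bound in both lines. The highest pileup ratio and the highest background ratio both belonged to SRSF1, where different ends are compared. The background in the lists is the peak caller's own estimate, with a floor of 3.75 in HCT116 and 4.09 in SW480. The depth of ChIP and input moves with the line, and its part in these ratios was not tested.

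**Figure D3:**
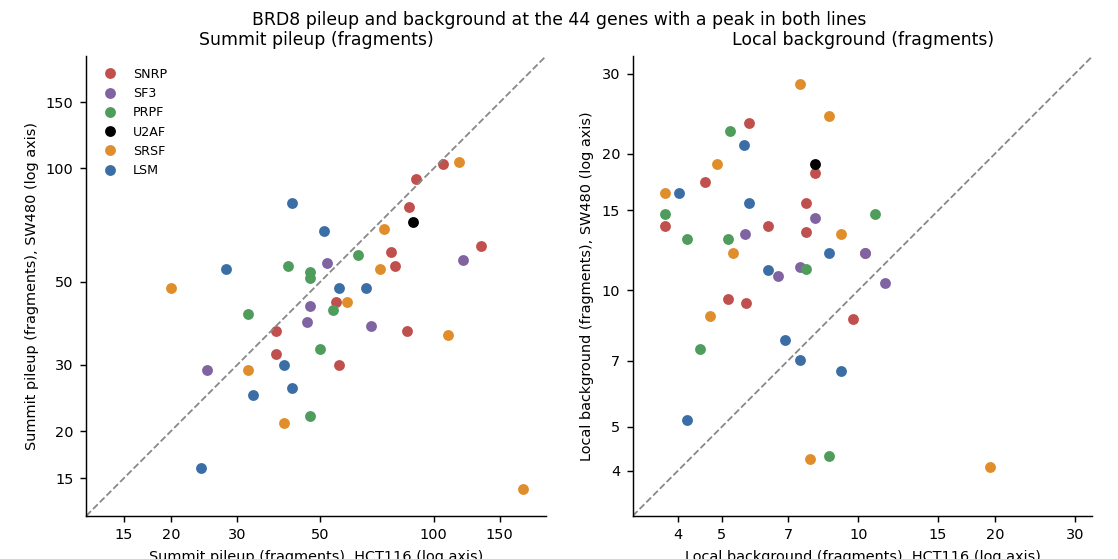
Summit pileup (left) and local background (right) in fragments for the 44 genes bound in both lines, HCT116 on the horizontal and SW480 on the vertical axis, both axes logarithmic, coloured by family, with the line of equality dashed. Pileups scatter around the line (median ratio 1.20), while 37 of 44 backgrounds lie on the SW480 side (median ratio 0.547), and the SRSF gene at the far right of both panels is SRSF1.

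The summits lay at the starts of the genes. Strand is known for 48 of the HCT116-bound genes, and all 48 summits were nearest the 5′ end, beside 94.7% of all bound protein-coding genes with known strand. In SW480 37 of 38 were (97.4%), SRSF1 being the exception, beside 95.3%. These shares are near those of genes in general. The median position was 161 bp downstream of the start in HCT116 (quartiles 64.75 to 251.25) and 163 bp in SW480 (quartiles 80 to 253). All protein-coding genes with a start peak had medians of 95 bp (quartiles −285 to 228) and 110 bp (quartiles −324.75 to 272). In the stretch 50 to 300 bp downstream, a window chosen after the positions were seen, lay 27 of 48 summits in HCT116 (56.2%) and 20 of 37 in SW480 (54.1%), beside 34.1% and 32.1% of all protein-coding genes with a start peak. In that window SNRP genes had 8 of 10 in HCT116 and 7 of 10 in SW480, SF3 genes 5 of 8 and 4 of 5, and LSM genes 5 of 10 and 4 of 7. PRPF genes had 2 of 8 in HCT116 and 3 of 6 in SW480, SRSF genes 7 of 10 and 2 of 8, and U2AF genes 0 of 2 and 0 of 1.

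**Figure D4:**
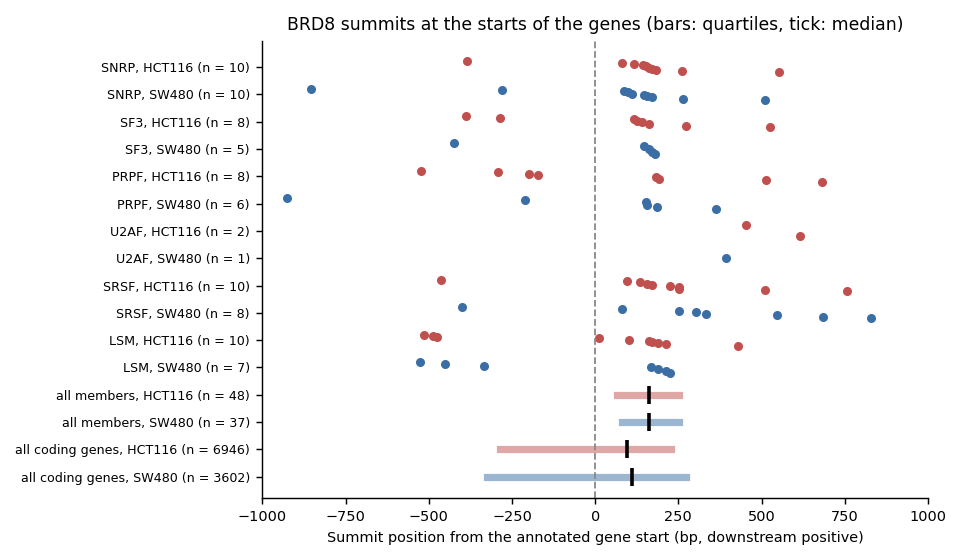
Position of the BRD8 summit relative to the annotated gene start (bp, downstream positive) for genes with a start peak and known strand, one point per gene, by family and line, with the median (tick) and quartiles (bar) of the members and of all coding genes below. Most points lie 50 to 300 bp downstream of the start, with medians of 161 bp in HCT116 and 163 bp in SW480.

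The lines also placed their summits at like positions, much as they did at protein-coding genes bound in both lines in general. The gap between the summits of a gene had a median of 58 bp over the 44 genes, beside 80 bp for all protein-coding genes bound in both lines, and was within 50 bp in 20 of 44 (45.5%), beside 39.2%. Peak regions overlapped in 41 of 44 (93.2%), beside 90.3%. LSM genes matched most closely, with 7 of 9 within 50 bp, SNRP genes with 6 of 11 and SRSF genes with 1 of 9, that one being SRSF6. The gap exceeded 500 bp in 8 genes. HCT116 regions were wider, with a median of 1520 bp over bound genes, beside 713 bp in SW480, and all bound protein-coding genes had medians of 1110 bp and 536 bp.

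SRSF genes carried further peaks within the gene. A peak counted as inside when its summit lay between the ends and over 1 kb from both. In HCT116, 24 of the 61 genes had one (39.3%), beside 23.0% of all protein-coding genes, and in SW480 5 had one (8.20%), beside 12.5%. Of all protein-coding genes bound in HCT116, 33.4% had one in HCT116 and 16.4% in SW480. The HCT116 share of 39.3% was thus closer to that of bound genes. These genes are short, with a median length of 16 kb beside 24.2 kb, and the density in HCT116 was 3.28 inside peaks per 100 kb, beside 0.689 for all protein-coding genes and 1.12 for those bound in HCT116. In SW480 it was 0.492, beside 0.408 and 0.540. The SRSF family held 18 of the 40 HCT116 peaks and 4 of the 6 SW480 peaks, in 8 and 3 of its 12 genes. Its density was 11.3 per 100 kb in HCT116, beside 3.75 for LSM, 2.21 for SNRP, 1.64 for SF3 and 0.834 for PRPF. U2AF had 6.40 from 2 peaks in U2AF2. Median lengths in kb were 9.66 for SRSF, 13.1 for SNRP, 14.6 for U2AF, 15.8 for LSM, 16.9 for SF3 and 26.9 for PRPF. The part of gene length in these densities was not tested. The 4 SRSF inside peaks in SW480 had their summits 1346 to 2492 bp downstream of the start.

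Most of these inside peaks were small. SRSF1 had 6 in HCT116, with folds of 2.28 to 3.42, in a row between its start and end peaks. SRSF11 had the strongest inside peak of the family, at 7.69 (42 fragments over 4.59, −log10 q 22.5), 16285 bp downstream of the start. This fold exceeded the 4.65 of its own start peak. SRSF6 had an inside peak in both lines, 1518 bp downstream in HCT116 (fold 4.71) and 1346 bp downstream in SW480 (fold 3.02). SRSF10 had 2 in each line, at folds of 3.37 and 3.11 in HCT116 and 3.73 and 3.37 in SW480. Of the other families, LSM5 had the highest inside fold, 5.10, from a region of 2020 bp. Whether these sites lie in exons or introns was not analysed here.

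**Figure D5:**
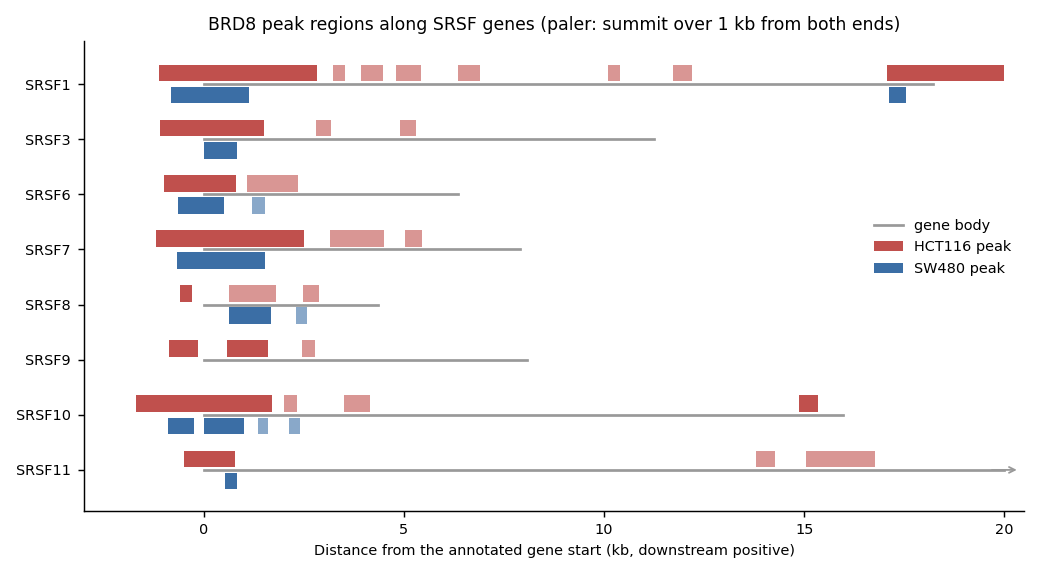
Peak regions along the 8 SRSF genes with an inside peak, drawn from upstream of the annotated start to 20 kb downstream. SRSF11 runs on past the axis. HCT116 lies above and SW480 below each gene line, with paler bars for peaks whose summit is over 1 kb from both ends. HCT116 shows 18 pale bars and SW480 shows 4, and SRSF1 has 6 of those in HCT116.

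Some of these genes share their peak with a neighbour, about as often as bound protein-coding genes in general. The best summit also lay within 1 kb of another protein-coding gene's end in 21 of 57 bound genes in HCT116 (36.8%), beside 32.0% of all bound protein-coding genes, and in 14 of 44 in SW480 (31.8%), beside 34.1%. Among them SNRPA shared its peak with ACTMAP, SF3B3 with COG4, SF3A2 with PLEKHJ1 and LSM7 with SPPL2B in both lines. LSM3 shared with XPC, LSM5 with AVL9, LSM1 with BAG4, SNRPD3 with GUCD1, SNRPD2 with QPCTL, SRSF11 with LRRC40, SF3A1 with CCDC157, PRPF4 with CDC26 and PRPF6 with SAMD10. In HCT116 alone, SF3B4 shared with MTMR11, SF3B6 with FAM228B, PRPF31 with TFPT, PRPF40B with FAM186B, SRSF2 with MFSD11, SRSF9 with DYNLL1 and U2AF1L4 with PSENEN. Such a peak cannot be assigned to one gene of the pair. SRSF6, SNRPF, SNRPB and SNRPE had no such coding neighbour. The SNRPF summit did lie within 1 kb of an end of the non-coding gene SNRPF-DT in both lines. With genes of any type counted, 30 of the 57 best HCT116 summits lay within 1 kb of another gene's end.

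Other splicing genes were also bound in large part. Of 97 genes in 5 lists around these families, 86 were bound in HCT116 (88.7%), beside 44.0% of all protein-coding genes, and 53 in SW480 (54.6%), beside 22.1%, and none in SW480 alone. Further snRNP proteins had 25 and 15 of 28, led by PPIH, a prolyl isomerase of the tri-snRNP, at 18.0 and 7.32, and PHF5A, a partner of SF3B1, at 14.0 and 5.11. In SW480 the second highest was TXNL4A, a U5 protein, at 11.1 and 5.11. Prp19-complex and step factors had 24 of 26 in HCT116 and 8 of 26 in SW480. Their SW480 share was 30.8%, with an interval of 16.5 to 50 that includes the 22.1% of all protein-coding genes. This list was led by PPIL1 at 16.6 and 4.22 and SYF2 at 11.4 and 4.33. In SW480 RBM8A, an exon junction protein, with 7.09 and 5.98, and BUD31, with 8.30 and 4.37, stood highest.

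SR protein kinases and partners had 12 of 15 genes bound in HCT116 and 11 of 15 in SW480. SRRM2, a scaffold of nuclear speckles, had 10.5 in HCT116 and 4.81 in SW480, SREK1 had 9.52 and 3.41, and RNPS1 had 6.74 and 5.15. A wider list around Sm ring and snRNP assembly had 18 and 15 of 20 genes bound. GEMIN2, of the SMN complex, had 10.6 and 2.73, NCBP1, a cap-binding protein, 7.79 and 5.00, and PRMT5, which methylates Sm proteins, 7.39 and 6.12. Partners of the decay ring had 7 and 4 of 8, with the decapping enzyme DCP2 at 7.47 and 2.29, DCP1A at 5.29 in HCT116 alone and DDX6 at 5.20 and 3.81. DCP1B went the other way, with 4.62 in HCT116 and 5.37 in SW480.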

How the data were processed

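The deposited files are 1 list of BRD8 peaks per ChIP library, in HCT116 and in SW480. The input libraries and any signal tracks were not used here. The submitters' processing notes name Trimmomatic 0.33, Bowtie2 2.4.1, MACS2, deepTools and the GRCh38 build, and how duplicate and multiply placed reads were handled is not stated in the sources used here. Peaks were listed per library, and the lowest deposited −log10 q-value, 1.30 in HCT116 and 1.31 in SW480, equals a q threshold of 0.05. The authors' fold enrichment is the ratio of the summit signal to the caller's local background. For that summit the authors also list a −log10 p-value and a −log10 q-value. The authors' score equals the −log10 q multiplied by 10 and truncated in 99.82% of HCT116 peaks and 99.98% of SW480 peaks, and was not used further. The deposited summit offset gave the summit position.

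Pileup and background were solved from each peak's fold and p by scanning pileups up to 2999 with a tolerance of 0.0001 on the p, which worked for 99.991% of HCT116 and 99.977% of SW480 peaks and was tested on simulated data. The lists give no read totals. The median pileup of all peaks was 24 fragments in HCT116 and 26 in SW480. Other contigs and chromosome Y, with 9 HCT116 and 72 SW480 peaks, were left out. Genes and coordinates came from RefSeq tables of GRCh38.p14, 1-based. Strand was read from the promoter table. The members and lists were chosen with earlier results of these data known. Named in full were the 3 highest genes per family and line, genes bound in 1 line or in neither, and fixed paralog pairs. Peak regions are printed for the leading genes. The values of 1 PRPF gene are counted in the totals and medians and are not reported here. The 2 highest genes per line of each other list were also named, and further ones after their values were seen. Alternatives covered the distance, the q threshold, list length, any overlap of the region, the 5′ end alone and, added after the data were seen, the peak of highest −log10 q. Python 3.11.15, pandas 2.3.3, numpy 2.4.6 and scipy 1.17.1 were used.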

Additional observations from a re-analysis of the deposited data

How the results depend on the processing

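Of 138 alternative values, 135 kept within 1.5 times the main count or within its spread. At 500 bp from a gene end, 7 PRPF genes were bound in HCT116 in place of 11. At a −log10 q of at least 5, 7 SNRP genes were bound in SW480 in place of 11, and 2897 of all protein-coding genes in place of 4413. Under the same threshold HCT116 bound 54 of the 61 genes (88.5%) and SW480 bound 33 (54.1%), beside 36.6% and 14.5% of all protein-coding genes. Over all alternatives the bound count ran from 48 to 57 in HCT116, the lowest being the 5′ end alone, where 52 genes could be counted, and from 33 to 45 in SW480. The median fold ran from 6.38 to 6.975 in HCT116 and from 3.338 to 3.747 in SW480. With the peak of highest −log10 q standing for a gene, 28 of 48 HCT116 and 21 of 38 SW480 summits lay 50 to 300 bp downstream of the start. The cause of the moves was not tested. No paired analysis was possible because each line has 1 ChIP library, and for the same reason no replicate could be left out. The lists give neither read totals nor unbound coverage, so a gene without a peak is below the caller's threshold and not shown to lack BRD8.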

Other observations

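The RNA partners of these proteins are encoded by repeated genes, and their binding was looked at after the data were seen. Of 154 small nuclear RNA genes in the table, 18 had a gene-end peak in HCT116 (11.7%), 10 in SW480 (6.49%) and 6 in both lines. Those 6 included RNU11, RNU12, RNU4ATAC and RNU6ATAC, the RNAs of the minor spliceosome, which removes a rare class of introns. RNU6ATAC had folds of 7.07 in HCT116 and 3.81 in SW480, RNU11 6.76 and 4.64, RNU4ATAC 5.64 and 2.11, and RNU12 5.06 and 2.23. RNU11 and RNU12 lie 331 bp and 361 bp from the coding genes TAF12 and POLDIP3, so their peaks cannot be assigned to one gene of the pair. RNU7-1, the RNA of the U7 snRNP, had 5.95 in HCT116 alone, 383 bp from C12orf57. Copies of one RNA are near-identical, and the labels do not say how reads that fit several copies were placed.

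Pseudogenes that carry the same name stems were rarely bound, as pseudogenes were in general. Of 97 such pseudogenes, 1 had a gene-end peak in HCT116, SNRPCP19, and 0 had one in SW480, beside 1.60% and 0.796% of all pseudogenes. The labels do not say how reads that fit both a parent gene and its copies were placed.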
